A study of Homo sapiens with 8 samples.

Results

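Fibroblast growth factor (FGF) signalling was described in SH-SY5Y cells through 10 genes, the ligand FGF2, the receptors FGFR1, FGFR2, FGFR3 and FGFR4, the receptor-like gene FGFRL1, and the feedback inhibitors SPRY1, SPRY2, SPRY4 and DUSP6. They are 10 of the 47591 genes in the deposited table, each matched by its symbol. They were chosen from the pathway with their values in these libraries and their differences between the lines already known, so these differences are given as a description and no test is read from them.

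SH-SY5Y is a human neuroblastoma line, and polyadenylated RNA was sequenced from 3 forms of it grown in the same serum-containing medium. G2 cells (3 libraries) were made with CRISPR/Cas9 and a guide aimed at PRPF40B, which encodes a splicing factor. SCR cells (3 libraries) received CRISPR/Cas9 with a scrambled control guide, and WT cells (2 libraries) were not edited. Colonies of the PRPF40B-edited cells were raised by limiting dilution after puromycin selection, a step the methods do not state for SCR, and they list G2 and SCR, but not WT, among the cells kept in puromycin. In these sources G2 and SCR are each 1 line, so a property of the line cannot be told apart from an effect of its guide, and the libraries are labelled as biological replicates without further detail, so p-values measure the spread between these libraries.

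FGFs bind receptor tyrosine kinases together with heparan sulfate and pass a signal through adaptor proteins and RAS to the kinases RAF, MEK and ERK. ERK switches on early-response genes and also its own inhibitors: Sprouty proteins act on the steps upstream of ERK, and DUSP6 is a phosphatase that removes the activating phosphates from ERK in the cytoplasm. For this reason Sprouty and DUSP6 transcripts are commonly used as a readout of the pathway, which in neural crest cells and neuroblastoma takes part in growth and differentiation.

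The values are normalized counts, that is reads per gene divided by a factor for the size of each library. Read totals recovered from the table ran from 59804395 to 81080747 per library. PRPF40B, the targeted gene, had 840, 841 and 918 normalized counts in G2, 1686, 1672 and 1669 in SCR, and 1972 and 1668 in WT, a log2 fold change of -0.95 against SCR and -1.07 against WT (limma with Benjamini-Hochberg adjustment, adjusted p = 7.4e-07 and 7.89e-07). The 8 sympathoadrenal markers of neuroblastoma, among them DBH and CHGA, were expressed in every line apart from TH, at 0 to 26.5. Their summed level was 84110 to 92469 in G2, 168449 to 181453 in SCR and 182453 to 197238 in WT. By the rule given below (at least 1.5-fold, unadjusted p of at most 0.05), 7 of the 8 were called lower against SCR and 6 against WT. That is 87.5% and 75% of the list, beside 11.8% and 12.2% of all genes tested. TH passed the filter on low values (a mean of at least 10) only through the control libraries, so nothing is read from its calls. GATA3 was higher in G2 without overlap, at 0.37 against SCR and 0.28 against WT (log2), and was not called. The 8 mesenchymal markers, dominated by VIM, summed to 239110 to 244953 in G2, 110920 to 118285 in SCR and 80775 to 92988 in WT. Of the 7 tested, 6 were called higher in each G2 comparison, or 85.7%, beside 15.1% of all genes tested in G2/SCR and 17.7% in G2/WT. TWIST1 went the other way without overlap, at 20674 to 21631 in G2, 26869 to 28525 in SCR and 25184 to 28189 in WT. It was not called (-0.39 against SCR and -0.34 against WT, log2). PRRX1 was at 0 in all 5 control libraries and at 20.7 to 48.2 in G2. It passed the filter only through G2, so nothing is read from its higher calls. FN1 was at most 2.27 in any library. The 5 Schwann cell precursor markers summed to 170 to 267 in G2 and 387 to 594 in the controls with SOX10 at 0 throughout, the 5 epithelial markers to 118 to 196 over all libraries, and the 5 blood markers to at most 20.8 in any library. The sympathoadrenal and mesenchymal sums differed, in opposite directions, between the same lines as most of the FGF genes below. The part of these markers in the FGF differences was not tested. In bulk RNA a change in the number of cells of a kind cannot be told apart from a change of RNA per cell.

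In outline, 8 of the 10 genes were higher in G2 than in both control lines, with no overlap between the G2 libraries and the 5 control libraries, as was the case for 22.8% of all genes tested. Against SCR alone 31.7% of genes were higher in every G2 library, against WT alone 33.3%, and between SCR and WT 27.5% lay higher and 27.8% lower without overlap. A gene was called when it differed at least 1.5-fold with an unadjusted p of at most 0.05. By that rule 8 of the 10 were called higher in G2/SCR, where 15.1% of the 18947 genes tested were called higher and 11.8% lower, and 8 in G2/WT, where 17.7% were higher and 12.2% lower. Since the genes were picked with these values known, nothing is read from the counts. FGFR4 and FGF2 were the exceptions. In SCR/WT, 2 of the 10 were called higher, FGFR2 and DUSP6, against 10.7% of all genes, and none lower, against 5.63%. The median log2 fold change of the 10 genes was 1.60 in G2/SCR, 1.60 in G2/WT and -0.07 in SCR/WT, beside -0.01, 0.00 and 0.01 over all genes tested. Both G2 comparisons use the same G2 libraries, so they do not stand for independent measurements.

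**Figure D1:**
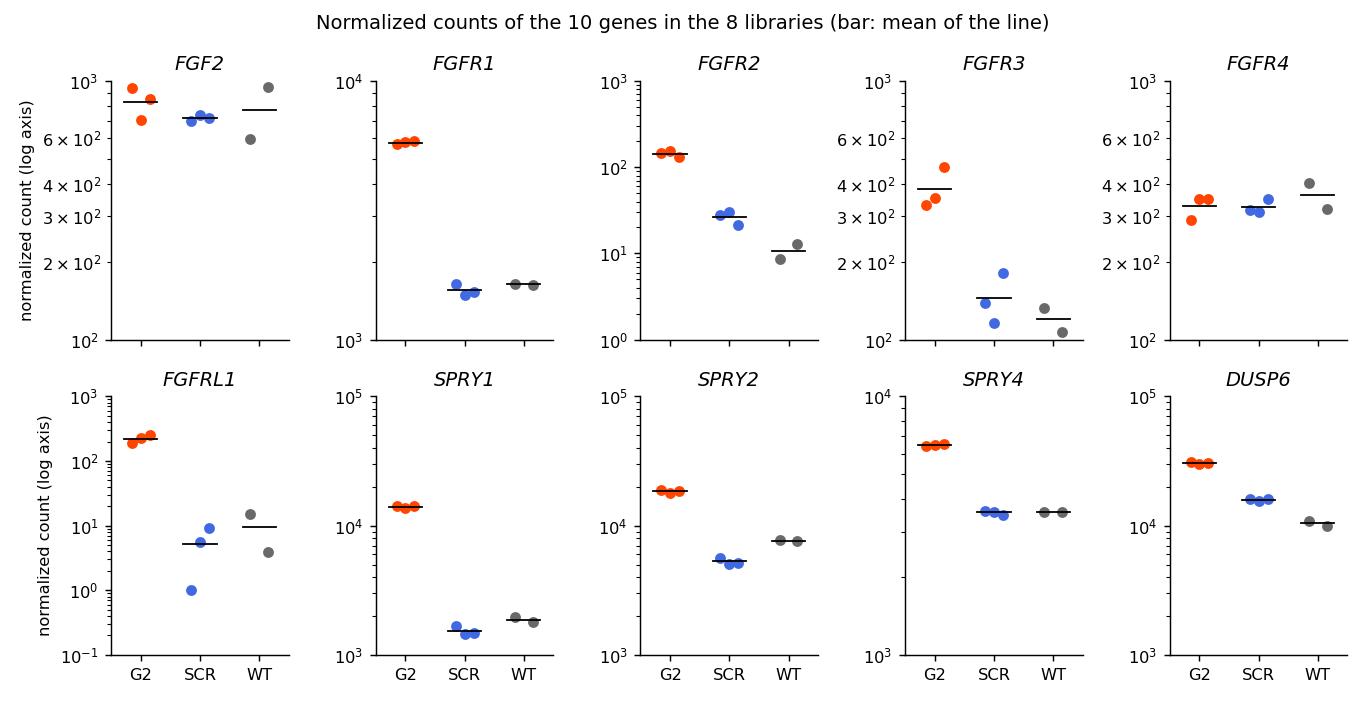
Normalized counts of the 10 genes on log axes, 1 point per library and a bar at the mean of each line (3 G2, 3 SCR and 2 WT libraries). The G2 points lie above every control point in 8 panels, while in FGF2 and FGFR4 the lines overlap.

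FGF2, the basic FGF, is the ligand of the group and lies on chromosome 4 (hg38, chr4:122826708-122898236, plus strand). It had 938, 707 and 850 normalized counts in G2, 699, 739 and 719 in SCR, and 598 and 950 in WT. The lines overlapped, and the 2 WT libraries spanned the whole range of the others. G2 differed from SCR by a log2 fold change of 0.20 (SE 0.15) and from WT by 0.13 (SE 0.17). The 3′ end of FGF2 overlaps NUDT6, which is read from the opposite strand and differed by -0.53 (log2) between G2 and SCR, and the strand setting of the counting is not given in the sources used here, so reads of these 2 genes may be mixed.

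FGFR1, a receptor widely used in mesenchymal and neural tissue, lies on chromosome 8 (chr8:38410219-38468834, minus strand). Its level was 5685, 5790 and 5853 in G2, 1637, 1485 and 1526 in SCR, and 1640 and 1633 in WT. SCR and WT overlapped, and the lowest G2 library was more than 3 times the highest control library. On the log2 scale G2 differed from SCR by 1.90 (SE 0.06) and from WT by 1.82 (SE 0.07), and SCR from WT by -0.08 (SE 0.07), which became 0.20 with all libraries scaled to the same total. Of 26 other tested genes within 1 Mb of FGFR1, 6 (23.1%) were called higher and 3 lower in G2/SCR, with a median log2 fold change of 0.10. Over all genes tested, 15.1% were called higher and 11.8% lower there. The adjacent gene LETM2, 692 bp away, differed by 0.50 from SCR and 0.88 from WT (log2).

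FGFR2, whose splice forms are shared out between epithelial and mesenchymal cells, lies on chromosome 10 (chr10:120723812-121775675, minus strand). It was the receptor with the lowest level, at 147, 155 and 130 in G2, 27.6, 30.03 and 21.2 in SCR, and 8.69 and 12.9 in WT. G2 was highest, SCR stood between and WT was lowest, without overlap. As log2 fold changes, G2 stood at 2.42 (SE 0.27) against SCR and 3.64 (SE 0.30) against WT, with 1.22 (SE 0.30) for SCR against WT, so part of the distance between G2 and WT was also present between the control lines. The WT values rest on 7 and 13 recovered reads, and with a pseudocount of 10 the log2 fold changes were 2.09, 2.89 and 0.80. In the authors' annotation the gene spans 1051864 bp, against 120127 bp in GENCODE, and takes in WDR11 on the other strand and part of ATE1. WDR11 differed by 0.48 and ATE1 by -0.09 in G2/SCR (log2), and whether reads from this extra stretch add to the FGFR2 count was not tested. Of 13 other tested genes within 1 Mb of FGFR2, 2 (15.4%) were called higher and 0 lower in G2/SCR, beside 15.1% and 11.8% of all genes tested. PLPP4, 131747 bp from FGFR2, rose by 4.57 over SCR and 4.67 over WT (log2).

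FGFR3 lies on the short arm of chromosome 4 (chr4:1793293-1808871, plus strand) and is best known for restraining bone growth. Its level was 330, 354 and 466 in G2, 139, 115 and 181 in SCR, and 133 and 107 in WT. G2 replicate 3 and SCR replicate 3 were the highest of their lines, and the lowest G2 library still lay above the highest SCR library. Log2 fold changes came to 1.40 (SE 0.19) for G2 over SCR, 1.66 (SE 0.21) for G2 over WT and 0.26 (SE 0.21) for SCR over WT. The gene's end overlaps LETM1 on the opposite strand, which differed by -0.49 (log2) between G2 and SCR. Of 35 other tested genes within 1 Mb of FGFR3, 1 (2.86%) was called higher and 7 lower in G2/SCR, beside 15.1% and 11.8% of all genes tested.

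FGFR4, a receptor with a known part in liver and in rhabdomyosarcoma, lies on chromosome 5 (chr5:177086886-177098144, plus strand). It had 289, 350 and 349 normalized counts in G2, 316, 312 and 348 in SCR, and 404 and 320 in WT. All 3 lines overlapped. G2 differed from SCR by a log2 fold change of 0.01 (SE 0.12) and from WT by -0.13 (SE 0.14), and with a scaling of all libraries to the same total both turned sign, to -0.08 and 0.06.

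FGFRL1 encodes a receptor-like protein that binds FGFs but lacks the kinase domain. It lies on chromosome 4 (chr4:1011152-1026898, plus strand), 766 kb from FGFR3. Its level was 189, 230 and 248 in G2, 1.02, 5.63 and 9.07 in SCR, and 14.9 and 3.97 in WT. The recovered reads behind these were 201, 210 and 231 in G2, 1, 6 and 12 in SCR, and 12 and 4 in WT, so the gene was close to undetected in both control lines. The ratio of means was 42.4 over SCR and 23.6 over WT, with log2 fold changes of 5.44 (SE 0.59) and 4.64 (SE 0.66). These sizes depend on a few control reads. Leaving out 1 control library at a time moved the fitted fold in G2/SCR between 27.2 (without SCR replicate 1) and 60.7 (without SCR replicate 3), and in G2/WT between 13.96 (without WT replicate 2) and 44.7 (without WT replicate 1). With a pseudocount of 10 the log2 fold change was 3.96 against SCR and 3.63 against WT. Between FGFRL1 and FGFR3, 13 genes were tested, of which 1 was called higher and 1 lower in G2/SCR, with a median log2 fold change of -0.06. Of 51 other tested genes within 1 Mb of FGFRL1, 3 (5.88%) were called higher and 7 lower there, beside 15.1% and 11.8% of all genes tested.

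To compare levels between genes, counts were divided by the length of each gene's canonical GENCODE transcript. Per kb, FGFR1 had the highest level of the 4 receptors in every line and FGFR2 the lowest. FGFR4 came next after FGFR1, at 107 ± 11.4 (SD, n = 3) normalized counts per kb in G2, 105 ± 6.47 (n = 3) in SCR and 117 ± 19.2 (n = 2) in WT, although in G2 it overlapped with FGFR3, at 89.1 ± 16.9. The summed level of the 4 receptors was 1241 ± 38.7 per kb in G2, 417 ± 19.0 in SCR and 434 ± 23.6 in WT, a ratio of 2.98 in G2/SCR, 2.86 in G2/WT and 0.959 in SCR/WT. FGFR1 made up 80.5% to 83.2% of this sum in the G2 libraries and 62.7% to 68.6% in the control libraries. FGFR4 went the other way, from 23.9% to 28.9% in the controls to 7.78% to 9.10% in G2, with an almost constant level of its own. The shares depend on the length taken. With the union of all GENCODE exons as the length, the FGFR1 share was 68.5% in G2, 47.7% in SCR and 48.8% in WT. FGFR3 then lay above FGFR4 in G2, at 16.0% against 13.9%, the reverse of their order by canonical transcript.

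**Figure D2:**
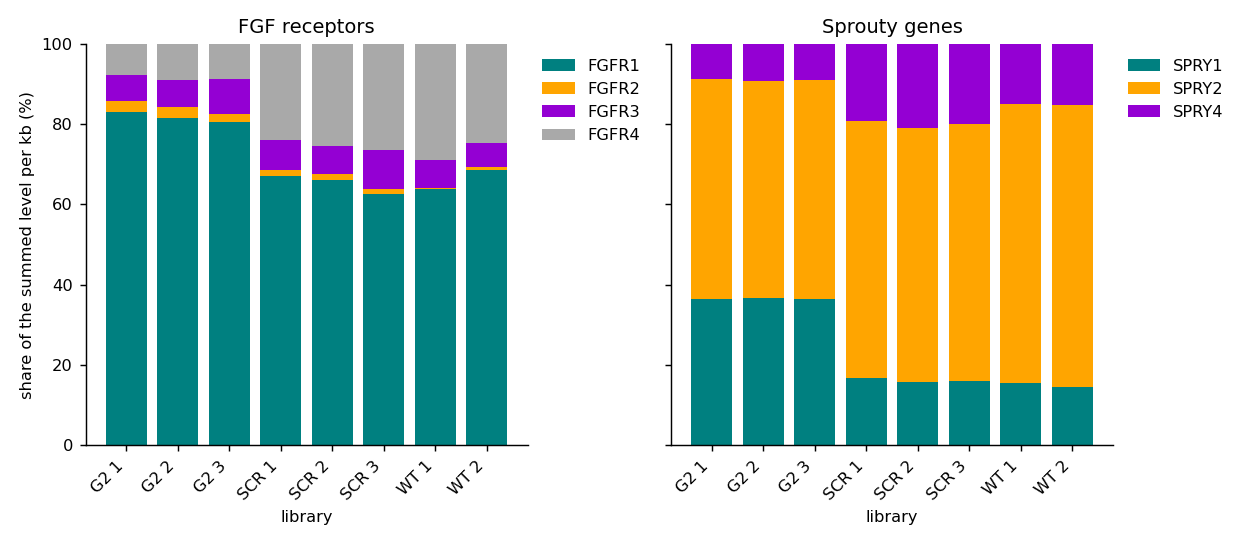
Share (%) of each gene in the summed level per kb of canonical transcript, for the 4 FGF receptors (left) and 3 Sprouty genes (right), in each of the 8 libraries. FGFR1 takes over 80% of the receptor sum in the G2 libraries and SPRY1 over 36% of the Sprouty sum, each above its share in all 5 control libraries.

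SPRY1, a Sprouty inhibitor of receptor tyrosine kinase signalling, lies on chromosome 4 (chr4:123396795-123403760, plus strand), 499 kb from FGF2. It had 14254, 13783 and 14103 normalized counts in G2, 1672, 1439 and 1487 in SCR, and 1949 and 1808 in WT. The G2 libraries lay within a few percent of each other, and SCR lay slightly below WT without overlap. On the log2 scale G2 differed from SCR by 3.20 (SE 0.07) and from WT by 2.90 (SE 0.07), and SCR from WT by -0.30 (SE 0.07), which became -0.02 with all libraries scaled to the same total. Among the 10 genes its difference from SCR was second to that of FGFRL1. SPATA5, the tested gene between FGF2 and SPRY1, differed by 0.07 (log2) between G2 and SCR, while LINC01091, 246231 bp beyond SPRY1, rose by 3.34 over SCR and 2.55 over WT (limma with Benjamini-Hochberg adjustment, adjusted p = 4.96e-07 and 1.45e-05).

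SPRY2, the family member with the highest level here, lies on chromosome 13 (chr13:80335976-80341126, minus strand). Its level was 18732, 17834 and 18591 in G2, 5634, 5051 and 5175 in SCR, and 7708 and 7627 in WT. WT stood between the other lines without overlap with either. As log2 fold changes, G2 stood at 1.80 (SE 0.05) against SCR and 1.26 (SE 0.06) against WT, with -0.54 (SE 0.06) for SCR against WT, the last just short of 1.5-fold and -0.26 when all libraries were scaled to the same total. None of the 4 other tested genes within 1 Mb of SPRY2 was called in any of the 3 comparisons.

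SPRY4 lies on chromosome 5 (chr5:142310430-142325040, minus strand). It had 6449, 6483 and 6569 normalized counts in G2, 3614, 3586 and 3488 in SCR, and 3571 and 3564 in WT. SCR and WT overlapped. Log2 fold changes came to 0.87 (SE 0.05) for G2 over SCR, 0.87 (SE 0.06) for G2 over WT and 0.00 (SE 0.06) for SCR over WT, with both G2 values under 2-fold. The SCR/WT value was 0.27 with all libraries scaled to the same total. SPRY4-AS1, a gene 253 bp from SPRY4, rose by 0.71 over SCR and 0.73 over WT (limma with Benjamini-Hochberg adjustment, adjusted p = 0.00563 and 0.00832), and its reads may in part be those of SPRY4 if strand was not used in counting.

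Per kb, the order of the Sprouty genes differed between the lines. In SCR, SPRY4 (726 ± 13.5 per kb) was above SPRY1 (589 ± 47.2). In WT these 2 overlapped, at 727 ± 0.959 and 722 ± 38.4, and in G2 SPRY1 (5396 ± 92.5) was far above SPRY4 (1326 ± 12.6). SPRY1 made up 36.4% to 36.7% of the Sprouty sum in G2, 15.8% to 16.7% in SCR and 14.6% to 15.4% in WT. By the union of exons the WT ranges no longer overlapped, with SPRY4 at 15.9% to 16.1% of the sum and SPRY1 at 13.5% to 14.3%. The sum itself was 4.07 times that of SCR and 3.07 times that of WT in the G2 line.

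DUSP6, the cytoplasmic ERK phosphatase, lies on chromosome 12 (chr12:89347235-89352503, minus strand). Its level was 30964, 29947 and 30273 in G2, 16044, 15494 and 16182 in SCR, and 10809 and 10018 in WT. As for FGFR2, G2 was highest and WT lowest, without overlap. On the log2 scale G2 differed from SCR by 0.93 (SE 0.05) and from WT by 1.55 (SE 0.05), and SCR from WT by 0.61 (SE 0.05). The SCR/WT value lies just over the 1.5-fold line, and without WT replicate 2 it was 0.56 and no longer called. Of the 8 other tested genes within 1 Mb of DUSP6, 3 were called higher in G2/SCR, 6 in G2/WT and 3 in SCR/WT, and none lower. These are 37.5%, 75% and 37.5% of the 8, beside 15.1%, 17.7% and 10.7% of all genes tested.

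**Figure D3:**
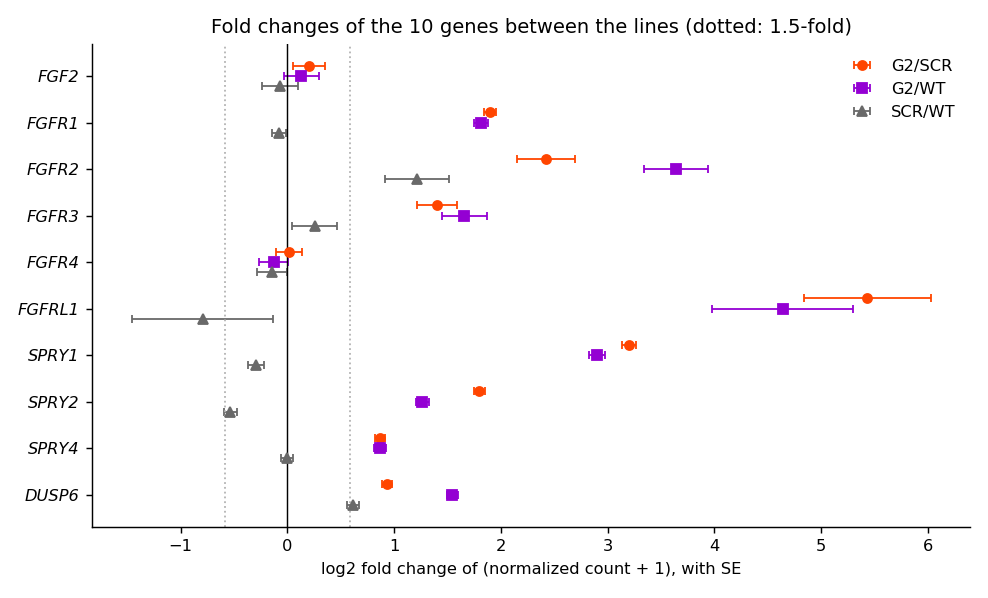
Log2 fold change (of the normalized count + 1) of each gene in G2/SCR, G2/WT and SCR/WT, with its standard error from the fit over all genes, and dotted lines at 1.5-fold. FGFRL1 has the largest values (5.44 and 4.64) and the widest errors, and FGFR2 and DUSP6 alone pass the 1.5-fold line upward in SCR/WT.

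Among the 8 genes higher in G2, 6 were called in both G2 comparisons and not in SCR/WT, namely FGFR1, FGFR3, FGFRL1, SPRY1, SPRY2 and SPRY4. Of all genes tested, 8.13% had this pattern. FGFR2 and DUSP6 did not have it, because they were also higher in SCR than in WT. Nearest to the 1.5-fold threshold lay DUSP6 in SCR/WT (0.61) on the inside and SPRY2 in SCR/WT (-0.54) on the outside. In the G2 comparisons the nearest were SPRY4 in G2/WT (0.87) inside and FGF2 in G2/SCR (0.20) outside, both some way from it. FGFRL1, at -0.79 (SE 0.66) in SCR/WT, passed 1.5-fold but not the p of the rule, and without WT replicate 2 it was called lower there, at -1.63.

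Across the 8 libraries, the genes whose log2 levels followed FGFR1 most closely, out of 13064 genes whose mean was 100 or more, were SPRY1 (Pearson r = 0.999), SUMF2 (0.999) and SPRY4 (0.999), and 205 genes exceeded 0.99. For DUSP6 they were ATP2B1-AS1 (0.999), C6 (0.999) and FMN1 (0.998), with 80 genes over 0.99. FGFR2 and DUSP6, the pair that also differed between the control lines, had r = 0.98 with each other, against 0.93 for FGFR1 with FGFR2 and 0.91 for FGFR1 with DUSP6. These correlations over 8 libraries of 3 lines mostly restate the differences between the lines and are given as a description.

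The genes that were higher in G2 lie on chromosomes 4, 5, 8, 10, 12 and 13. Their promoter sequences are shown for 3 of them, FGFR3, SPRY1 and SPRY2, whose RefSeq start site coincides with the start of the gene in the table and whose upstream stretch holds no annotated exon. Motifs of factors on which growth factor signalling is known to act were searched on both strands, the ETS core CCGGAA, the AP-1 site TGANTCA, the cyclic AMP response element TGACGTCA and the EGR site GCGNGGGCG. The 250 bases before the start site (RefSeq, GRCh38.p14) follow 5′ to 3′ on the strand of the gene, at chr4:1793043-1793292 for FGFR3, chr4:123396545-123396794 for SPRY1 and chr13:80341127-80341376 for SPRY2, with matches in capitals.
FGFR3: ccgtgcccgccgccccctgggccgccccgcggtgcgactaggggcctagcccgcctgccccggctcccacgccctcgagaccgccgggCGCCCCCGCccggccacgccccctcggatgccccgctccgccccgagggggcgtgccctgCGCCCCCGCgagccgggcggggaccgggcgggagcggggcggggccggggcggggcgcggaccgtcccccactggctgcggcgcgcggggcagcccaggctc
SPRY1: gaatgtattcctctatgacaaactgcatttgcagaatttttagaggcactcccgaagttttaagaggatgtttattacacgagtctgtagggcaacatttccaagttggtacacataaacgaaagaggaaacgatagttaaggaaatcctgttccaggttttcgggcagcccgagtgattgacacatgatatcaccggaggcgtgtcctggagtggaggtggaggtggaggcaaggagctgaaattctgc
SPRY2: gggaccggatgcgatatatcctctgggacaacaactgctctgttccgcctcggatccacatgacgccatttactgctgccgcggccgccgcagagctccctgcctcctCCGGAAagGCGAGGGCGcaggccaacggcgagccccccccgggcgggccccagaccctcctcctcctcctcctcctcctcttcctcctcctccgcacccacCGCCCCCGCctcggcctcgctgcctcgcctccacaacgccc
FGFR3 held 2 matches to the EGR site in this stretch, SPRY2 held 1 match to the ETS core and 2 to the EGR site, and SPRY1 held none of the 4 motifs there. SPRY1 has another RefSeq start site, 1591 bp from the start of the gene in the table. The 250 bases before it, all within annotated exons, held 1 ETS core and 1 EGR site. The stretches before the other RefSeq start sites of SPRY2 held none of the motifs. RefSeq windows of 300 bases were given for 9 of the 10 genes, 17 windows in all. Of these 17, 2 held the ETS core and 6 the EGR site, and none held the AP-1 site or the cyclic AMP response element. Among all 35116 windows of the same length, the shares were 17.2%, 9.43%, 7.71% and 1.85%, and several windows belong to 1 gene, so no comparison is drawn. A match is a run of letters and does not show that a factor bound there.

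The other genes of the pathway were taken from 5 lists with 83 genes, of which 65 were expressed highly enough to be tested. Of these 65, 23 were called higher and 4 lower in G2/SCR, 26 higher and 5 lower in G2/WT, and 15 higher and 4 lower in SCR/WT. In the same order, these are 35.4% and 6.15%, 40.0% and 7.69%, and 23.1% and 6.15% of the 65. Over all genes tested the shares were 15.1% and 11.8%, 17.7% and 12.2%, and 10.7% and 5.63%. The lower calls in SCR/WT were near the share over all genes. The lists were chosen with earlier results of these data known. For this reason nothing is read from these shares or from those of the single lists below. The median log2 fold change over the 65 was 0.33, 0.42 and 0.15. The adjusted p-values of single genes below are over all 18947 genes (limma with Benjamini-Hochberg adjustment).

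Of 21 further FGF ligands, 8 were tested, of which 3 were called higher and 1 lower in G2/SCR, and 4 higher in G2/WT. The higher calls, FGF20 among them, were 37.5% of the 8 in G2/SCR and 50% in G2/WT, beside 15.1% and 17.7% of all genes tested. The lower call was 12.5%, near the 11.8% over all genes. FGF5 rose most clearly, with 501 to 667 normalized counts in G2, 83.9 to 130 in SCR and 38.7 to 69.5 in WT (log2 rises of 2.36 over SCR and 3.43 over WT, adjusted p = 3.55e-06 and 3.79e-07). It was also called higher in SCR than in WT (1.07). FGF19, an endocrine FGF known for the control of bile acid synthesis, rose from 25.8 to 39.8 in the controls to 88.7 to 110 in G2 (1.59 in G2/SCR, adjusted p = 0.00017). FGF20 had 0 to 13.7 in the controls and 38.6 to 59.1 in G2, and it passed the filter on low values only through G2, so nothing is read from its 2 higher calls, which were lost without SCR replicate 1 in G2/SCR and without WT replicate 2 in G2/WT. FGF1, the acidic FGF, differed mainly between WT and the other lines, at 45.9 to 70.5 in WT, 345 to 404 in SCR and 247 to 304 in G2 (2.66 in SCR/WT, adjusted p = 1.23e-06). FGF14, an intracellular FGF homologous factor that regulates sodium channels, stood at 0.59 in SCR/WT, 0.12 in G2/WT and -0.47 in G2/SCR, where the libraries did not overlap. Its SCR/WT call was at the 1.5-fold line and was lost with a pseudocount of 10 and without SCR replicate 1, SCR replicate 2 or WT replicate 1. The 1 called lower, FGF22, overlapped between the lines, at 1.09 to 16.0 in G2 and 14.4 to 24.5 in SCR (adjusted p = 0.0813), and the call was lost without G2 replicate 2, G2 replicate 3 or any 1 SCR library. Of the 13 not tested, FGF7 had the highest level, at most 29.2.

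Of 10 co-receptors and FGF-binding proteins, 5 were tested, and none was called in the same direction in both G2 comparisons. FLRT3, a membrane protein that promotes FGF signalling, had 661 to 752 in G2, 237 to 383 in SCR and 880 to 1012 in WT, so it rose by 1.21 in G2/SCR (adjusted p = 2.92e-05) and was lower in SCR than in WT by a log2 fold change of -1.61 (adjusted p = 2.37e-05). FLRT1 likewise stood 1.22 above SCR but -2.13 against WT, with the first call lost without G2 replicate 1 or SCR replicate 2. FGFBP3 fell by 0.80 in G2/WT (adjusted p = 0.00078) and stood at -0.51 in G2/SCR, where it was called lower with all libraries scaled to the same total (-0.60) and without G2 replicate 3 (-0.61). ANOS1, the gene of X-linked Kallmann syndrome, was higher in G2 and SCR than in WT, at 2.16 in G2/WT and 1.97 in SCR/WT.

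The 23 signal relays between the receptor and ERK were all tested, and 20 of them were not called in G2/SCR. The 2 called higher and 1 called lower there are 8.70% and 4.35% of the 23, beside 15.1% and 11.8% of all genes tested. GAB1, a docking protein of receptor tyrosine kinases, rose by 0.91 over SCR and 1.26 over WT (adjusted p = 0.000204 and 3.63e-05). SHC1, an adaptor that links receptors to RAS, rose by 0.59 and 0.63 (adjusted p = 1.23e-06 and 1.98e-06). Its rise in G2/SCR was at the 1.5-fold line and the call was lost without G2 replicate 2, SCR replicate 2 or SCR replicate 3, and with all libraries scaled to the same total. FRS3, an FGF receptor substrate, fell by 0.67 in G2/SCR (adjusted p = 2.3e-05), but its level in G2, 1455 to 1813, overlapped with WT, 1638 to 1702. MAP2K2, which encodes MEK2, fell by 0.63 in G2/WT (adjusted p = 0.000181) and stood at -0.43 in G2/SCR, and it was not called in G2/WT without WT replicate 1 or with all libraries scaled to the same total. Under that scaling NRAS, BRAF and PIK3CA were called higher in G2/WT, at 0.61 to 0.77.

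Of 14 further feedback inhibitors, all tested, 6 were called higher and 1 lower in G2/SCR, and 8 higher and 1 lower in G2/WT. The higher calls were 42.9% and 57.1% of the list, and the lower call 7.14% in each comparison. Over all genes tested the shares were 15.1% and 17.7% higher, and 11.8% and 12.2% lower. DUSP5, a nuclear ERK phosphatase, had 1579 to 1662 in G2, 427 to 538 in SCR and 591 to 739 in WT, a log2 rise of 1.78 over SCR and 1.29 over WT (adjusted p = 4.67e-08 and 2.3e-06). DUSP10, which acts mainly on p38 and JNK, rose by 1.67 and 2.29 (adjusted p = 3.21e-07 and 5.86e-08), and DUSP2 by 1.37 and 1.29 (adjusted p = 5.52e-07 and 2.65e-06). DUSP10 was also called higher in SCR/WT (0.62), a call lost without SCR replicate 1 or WT replicate 2. DUSP4 went another way, with 20788 to 22440 in G2, between SCR at 29606 to 32144 and WT at 10344 to 11145. It rose by 1.00 in G2/WT and 1.51 in SCR/WT (adjusted p = 6.41e-08 and 1.55e-08) and stood at -0.51 in G2/SCR. SPRED3, a Sprouty-related inhibitor, was ordered like DUSP6, at 1285 to 1353 in G2, 801 to 898 in SCR and 440 to 441 in WT. The 1 gene of this list called lower was IL17RD (also called SEF), an inhibitor of FGF signalling, at -0.74 against SCR and -0.71 against WT (adjusted p = 1.9e-05 and 6.96e-05). With all libraries scaled to the same total, and without WT replicate 2, its G2/WT call was lost. Under the same scaling DUSP4 was called lower in G2/SCR (-0.60), SPRED3 and DUSP16 (both 0.54) were no longer called higher there, and SPRED2 and DUSP9 were called higher in G2/WT.

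Of 15 transcripts known to respond to ERK, 10 were called higher and 1 lower in each of the 2 G2 comparisons, and 6 higher and 2 lower in SCR/WT. The higher calls were 66.7% of the 15 in each G2 comparison and 40% in SCR/WT. Over all genes tested the shares were 15.1% in G2/SCR, 17.7% in G2/WT and 10.7% in SCR/WT. The lower calls were 6.67% in each G2 comparison and 13.3% in SCR/WT, beside 11.8%, 12.2% and 5.63% over all genes. EGR1, an immediate early transcription factor, had 4659 to 4811 in G2, 688 to 753 in SCR and 447 to 539 in WT, a log2 rise of 2.70 over SCR and 3.27 over WT (adjusted p = 1.37e-10 and 6.75e-11). PHLDA1 rose from 111 to 171 in SCR and 256 to 310 in WT to 2500 to 2837 in G2 (4.25 in G2/SCR, adjusted p = 3.26e-10). PLAUR, the urokinase receptor, rose by 1.87 and 1.20 (adjusted p = 7.8e-09 and 1.25e-06). PHLDA1 (-1.03) and PLAUR (-0.68) were the 2 called lower in SCR/WT. The call of PLAUR there was lost without WT replicate 1 and with all libraries scaled to the same total. CCND1, which encodes cyclin D1, rose by 0.61 in G2/SCR, 1.23 in G2/WT and 0.62 in SCR/WT, and its call in G2/SCR was lost without G2 replicate 3 or SCR replicate 3, and with all libraries scaled to the same total. MYC was the 1 that fell, with 2244 to 2506 in G2, 9052 to 9590 in SCR and 7564 to 7608 in WT, at -1.95 against SCR and -1.66 against WT (adjusted p = 1.38e-10 and 1.32e-09). The 4 not called in either G2 comparison were ETV4 (0.56 against SCR and 0.35 against WT), ETV5 (0.15 and 0.22), JUNB (0.44 and 0.38) and IER2 (0.33 and 0.25).

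**Figure D4:**
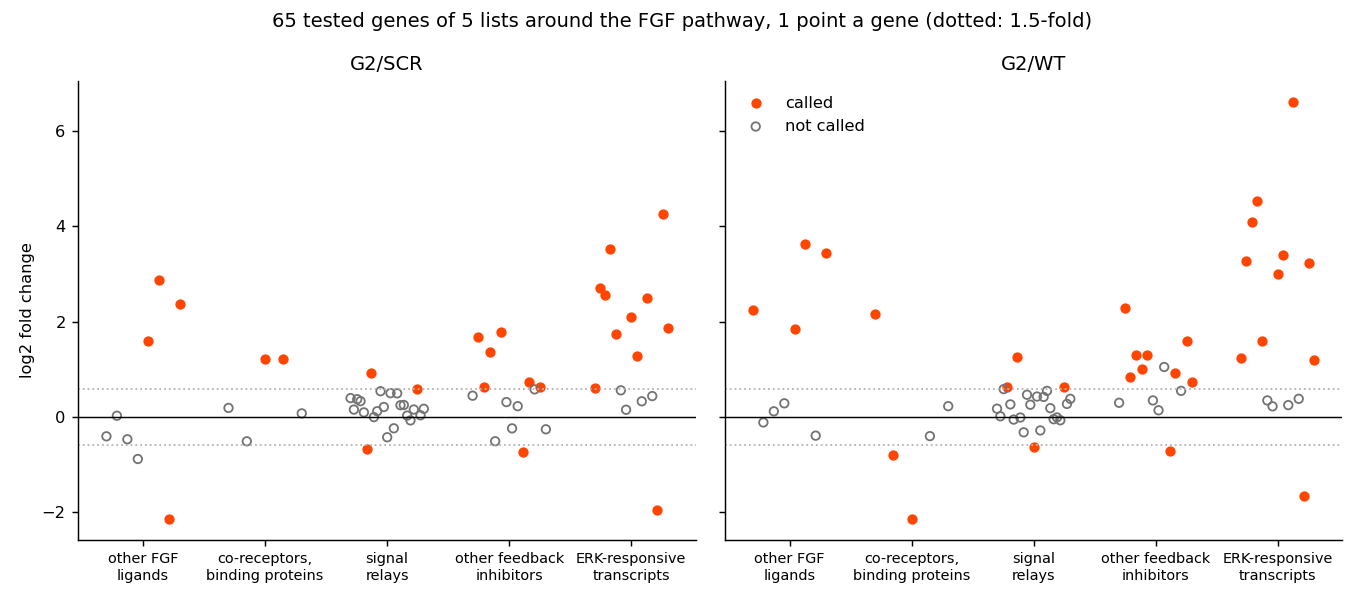
Log2 fold change of the 65 tested genes of the 5 lists in G2/SCR (left) and G2/WT (right), 1 point per gene, filled where called (at least 1.5-fold, unadjusted p of at most 0.05). The 23 signal relays lie near 0, with 20 not called in G2/SCR, while 10 of the 15 ERK-responsive transcripts are called higher in each panel and MYC is the called point below 0 among them.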

How the data were processed

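RNA-seq libraries of polyadenylated RNA (3 G2, 3 SCR, 2 WT) were grouped by their labels. The authors aligned read pairs with STAR (hg38), used featureCounts (Subread 1.5.0) and FAST DB genes for counting and normalized the counts with DESeq2, and the deposited signal is this normalized count per gene and library. Strand setting and treatment of multi-mapping reads are not given in the sources used here. Whole reads were recovered from the steps of the values for 100% of values (within 0.01), but for WT replicate 2 the step lay too near 1 to check. Of small recovered counts, 75.3% to 79.2% were multiples of 3, so reads are not independent molecules, and depth sets only the counting error.

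Genes averaging 10 or more (18947) entered as log2(value + 1) and were fitted with limma 3.58.1 (R 4.3.3, lmFit and eBayes with trend), with 1 mean per line. Calls required 1.5-fold or more and an unadjusted p no higher than 0.05, as in the study. The background FPKM filter of the study was not repeated. Fold changes are on the log2(value + 1) scale, which understates the change of low genes. All 10 genes passed the filter on low values, FGFRL1 through its level in G2. Recovered counts of G2/SCR were also fitted with edgeR 4.0.16 and DESeq2 1.42.0. The fit was tested on simulated data. Lengths, strands and exons come from GENCODE 44 and promoters from RefSeq. The union of all exons was the first length used, and the canonical transcript replaced it after the lengths and values were seen, since the union counts exons of every isoform. The union is kept as an alternative.

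The 10 genes and the pathway lists were chosen with earlier results of these data known. Of each list, the text names up to 4 genes, by p against SCR, of those called in a G2 comparison, up to 2 called in SCR/WT with a mean of at least 100, and neighbouring and overlapping genes. IL17RD, FGF22, FGF7, the ERK-responsive transcripts that were not called and genes named only for a call that another scaling changed were named after their values were seen. 1 marker gene is not reported here and was left out of its list.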

Additional observations from a re-analysis of the deposited data

How the results depend on the processing

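Both G2 comparisons kept 8 of the 10 genes called higher under another pseudocount (0.5 or 10), with no filter, with either other scaling, with an adjusted p, in fits of 2 lines, and without any single library, as did DESeq2 and edgeR on recovered counts in G2/SCR. A mean of at least 100 left out FGFR2 and FGFRL1, and a fold of at least 2 left out SPRY4 in both comparisons and DUSP6 in G2/SCR. In SCR/WT each of these 2 settings left 1 of the 10 called. Over all genes, the calls in G2/SCR, G2/WT and SCR/WT were 5088, 5657 and 3097, against 3088, 3633 and 1723 at a mean of at least 100 and 2951, 3176 and 1491 at a fold of at least 2, where the pathway lists gave 12 calls in SCR/WT against 19 and PRPF40B, at -0.95 in G2/SCR, was short of 2-fold. These drops follow from fewer genes tested or a stricter fold. Without 1 library, calls over all genes ranged from 4790 to 5191, 5070 to 6145 and 2851 to 3543. Scaling all libraries to the same total moved the median log2 fold change of all genes to -0.10 in G2/SCR, 0.19 in G2/WT and 0.29 in SCR/WT, and the share of calls that were higher from 56.2%, 59.3% and 65.6% to 47.4%, 75.8% and 90.7%. Libraries with the same replicate number did not deviate together (r from -0.17 to 0.15 over 7 pairs), and with the replicate number as a block the 10 genes gave 8, 8 and 2 calls, the pathway lists 26, 31 and 18, and all genes 5059, 5644 and 3057. Only 2 WT libraries were sequenced, so values against WT rest on the smallest group, and FGFRL1 and FGFR2 in the controls rest on few reads.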
